A study of Homo sapiens with 4 samples.

Results

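Fatty acids are made in the cytosol from acetyl-CoA and are then lengthened, desaturated and joined to coenzyme A. The 10 genes described here encode enzymes of that route. They are ACLY and ACSS2, which supply acetyl-CoA, ACACA and FASN, which build the chain, ELOVL6 and ELOVL5, which lengthen it, SCD, FADS1 and FADS2, which put in double bonds, and ACSL3, which activates the product. They were taken from the count tables by symbol, and 10 of 10 were found among the 23228 genes listed and were among the 13546 genes tested. RNA-seq was performed on ES2 cells, an established ovarian cancer cell line, kept in phenol red-free RPMI medium with 5% charcoal-stripped serum and treated for 24 h with vehicle (2 samples) or with 100 μM Liq (liquiritigenin, 2 samples), a plant flavanone used in the study as an agonist of estrogen receptor beta. The comparison of Liq with vehicle asks which transcripts the agonist alters in these cells. Both groups come from 1 cell line, and no source used here says that the samples of a group were separate cultures, so the p-values measure only the spread between these samples.

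In most cells de novo synthesis runs at a low rate when lipid is plentiful, and tumor cells often keep it high. The route is controlled largely at transcription by the sterol regulatory element binding proteins, the products of SREBF1 and SREBF2, which also drive cholesterol synthesis and LDL uptake. INSIG1 holds their escort protein SCAP in the endoplasmic reticulum when sterols are abundant.

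The 4 libraries held between 34573053 and 48933893 reads counted on genes, which puts the level of 3 counts at 0.0598 to 0.0844 CPM (each count relative to its library size after TMM scaling), a level that covers counting error only. The share of tallied reads that fell on genes was 54.1% to 55.6%. Chi-square per degree of freedom was 6.49 between the vehicle samples and 11.6 between the Liq samples, against 60.5 to 74.7 between groups, so no library was a copy of another. Of the markers of ovarian and epithelial cells, KRT7 was abundant and rose with Liq (265.6 and 238.0 CPM in vehicle, 377.8 and 337.2 CPM in Liq, log2 fold change 0.51), and KRT18 fell (204.0 and 191.4 CPM, then 168.6 and 165.7 CPM, log2 fold change -0.24). EPCAM had at most 3 counts in a sample, and MUC16 and CDH1 had at most 1 count. WT1 (4.09 and 4.84 CPM in vehicle, 2.76 and 2.79 CPM in Liq) and PAX8 (1.19 and 1.23 CPM, then 0.337 and 0.578 CPM) were low and were lower with Liq. The summed level of the 8 markers in that list was 499 and 459 CPM in vehicle and 577 and 531 CPM in Liq. Markers of other lipid-making cells were at or near 0. The 5 adipocyte markers summed to 0.309 to 0.705 CPM with ADIPOQ and LEP at 0 counts in every sample, and the 4 hepatocyte markers summed to 0.0267 to 0.199 CPM with TTR at 0. Among leukocyte, endothelial and erythroid markers, PTPRC had at most 1 count, PECAM1 at most 10 and HBB at most 2, while CD68 lay at 66.4 to 77.4 CPM and CDH5 at 44.6 to 52.9 CPM, neither with a change that passed the test. Of the 4 mesenchymal markers, VIM and FN1 were high (7604 and 7902 CPM in vehicle replicate 1) and were lower with Liq, by 0.28 and 0.15 on the log2 scale, and CDH2 was higher by 0.22. The part of these marker changes in the results below was not tested. In bulk RNA a change in the number of cells and a change in RNA per cell cannot be told apart.

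Liq raised 9 of the 10 genes of fatty acid synthesis and desaturation. The largest increase was that of SCD, at 1.99-fold, followed by FADS2 (1.56-fold), FASN (1.36-fold) and FADS1 (1.35-fold). ACACA, ELOVL6, ELOVL5, ACSS2 and ACSL3 rose by 1.19- to 1.28-fold, and ACLY was the exception, at 0.911-fold and not past the threshold. These calls rest on edgeR's quasi-likelihood test with Benjamini-Hochberg adjustment over all tested genes and an adjusted p-value under 0.05. By this rule 12.6% of the 13546 tested genes were higher with Liq. Among the 6664 tested genes whose mean level was at least that of FADS2, the least abundant of the 10 in CPM (30.7 CPM over the 4 samples), 9.06% were. As lower, 0 members passed in this fit and with DESeq2, against 11.3% of all tested genes in this fit. At an unadjusted p-value under 0.05, 1 member (ACLY) was lower, against 17.3% of all tested genes and 24.0% of those at or above the level of FADS2. With a fold change of at least 1.5 as well, SCD and FADS2 remained, against 4.29% of all tested genes higher by that rule and 0.750% of the genes at or above the level of FADS2. With the unadjusted p-value in that rule the same 2 members were higher, against 5.37% of all tested genes. In 9 members both Liq samples lay above both vehicle samples, as in 31.5% of all tested genes, and in ACLY both lay below, as in 30.2%. Among the genes at or above the level of FADS2 these shares were 22.9% and 39.5%, and 15.8% passed as lower. The median log2 fold change was 0.355 over the 10 members and 0.00619 over all tested genes. For 2 samples against 2, the smallest two-sided p-value of an exact permutation test is 0.3333, and the calls therefore depend on edgeR's moderated estimate of the spread.

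**Figure D1:**
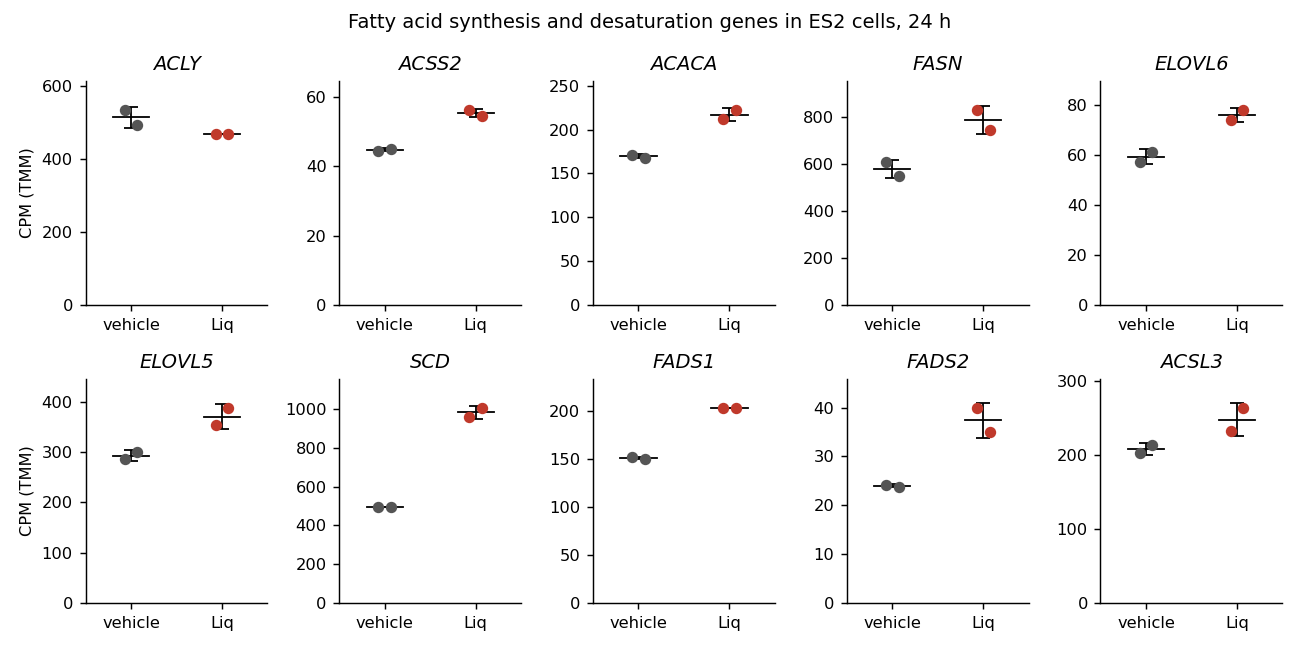
Level of each of the 10 genes (TMM-scaled CPM, linear axes from 0) in the 2 vehicle (grey) and 2 Liq (red) samples, with the mean (line) and SD (bar) of each group. In 9 panels the red points lie above the grey ones, most widely for SCD (494.1 and 495.5 CPM against 960.6 and 1007 CPM), and in the ACLY panel they lie below.

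The start regions of the genes were read from RefSeq (GRCh38.p14), which gave 14 windows of 300 bases, from 250 before to 50 after an annotated start, for 9 of the 10 members. FASN has no entry there. Below are SCD and FADS2, which rose most, ELOVL5, the only member with an E-box in its window, and ACLY, which did not rise. All are given 5′ to 3′ on the strand of the gene, with capitals marking CCAAT (the box bound by NF-Y), GGGCGG (the GC box bound by Sp factors) and CACGTG (the E-box bound by USF and MLX-type factors), on either strand. SCD lies at chr10:100346983-100347282, plus strand, FADS2 (the second of 2 starts) at chr11:61816154-61816453, plus strand, ELOVL5 at chr6:53348901-53349200, minus strand, and ACLY (the first of 2 starts) at chr17:41918973-41919272, minus strand.
SCD: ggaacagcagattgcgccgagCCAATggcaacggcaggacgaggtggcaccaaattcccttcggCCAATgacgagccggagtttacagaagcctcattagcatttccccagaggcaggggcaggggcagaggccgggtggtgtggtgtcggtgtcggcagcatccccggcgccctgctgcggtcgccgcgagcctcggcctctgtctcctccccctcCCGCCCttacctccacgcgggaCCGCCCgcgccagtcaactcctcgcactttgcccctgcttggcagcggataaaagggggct
FADS2: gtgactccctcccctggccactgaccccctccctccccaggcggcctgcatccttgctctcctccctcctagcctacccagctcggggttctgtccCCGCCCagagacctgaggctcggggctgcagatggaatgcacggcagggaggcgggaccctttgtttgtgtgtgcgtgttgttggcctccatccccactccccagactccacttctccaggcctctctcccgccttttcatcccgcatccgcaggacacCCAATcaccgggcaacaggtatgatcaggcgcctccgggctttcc
ELOVL5: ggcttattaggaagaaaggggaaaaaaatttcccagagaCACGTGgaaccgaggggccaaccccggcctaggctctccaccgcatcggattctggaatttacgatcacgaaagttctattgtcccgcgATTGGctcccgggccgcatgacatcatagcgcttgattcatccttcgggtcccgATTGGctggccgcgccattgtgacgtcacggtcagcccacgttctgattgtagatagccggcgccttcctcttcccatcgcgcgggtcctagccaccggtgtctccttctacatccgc
ACLY: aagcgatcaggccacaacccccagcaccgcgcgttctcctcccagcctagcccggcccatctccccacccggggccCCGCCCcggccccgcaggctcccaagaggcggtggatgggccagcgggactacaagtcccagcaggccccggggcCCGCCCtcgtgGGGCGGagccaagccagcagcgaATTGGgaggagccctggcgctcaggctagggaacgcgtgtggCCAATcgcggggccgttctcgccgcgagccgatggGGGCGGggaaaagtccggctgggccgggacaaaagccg

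CCAAT or its reverse complement was found in 9 of the 14 windows, from 7 genes, and in 34.6% of the 35116 windows of all genes. SCD holds 2 copies, 229 and 186 bases before the start, both upstream of its 2 GC boxes. The first FADS2 window, not printed, held 0 of the searched motifs. The second, printed above, holds 1 CCAAT, 5 bases after its start, and 1 GC box. ACLY, whose level did not rise, holds 2 copies of CCAAT together with 4 GC boxes in each window. ELOVL6 and FADS1 rose and hold no CCAAT in their windows. Whether these letters bear on the changes was not tested. GGGCGG was found in 11 of the 14 windows, from 8 genes, and in 15786 of the 35116 windows. CACGTG was found in 1 window, that of ELOVL5, and in 7.26% of all windows. The core of the sterol regulatory element, searched as TCACNCCAC on both strands, was found in 0 of the 14 windows and in 1.13% of all windows, which says only that these letters are not within this distance of these starts. Windows of 1 gene can overlap, and the searched motifs do not contain one another.

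ACLY and ACSS2 supply the acetyl-CoA from which fatty acids are built, and they moved differently. ACLY (chromosome 17 from 40023170 to 40086795, GRCh37, minus strand), the enzyme that splits citrate exported from mitochondria, had 532 and 493 CPM in the vehicle samples and 468 and 467 CPM in the Liq samples. The Liq samples were nearly the same as each other and lay just under the lower vehicle sample. The log2 fold change was -0.13 (SE 0.064, 95% interval -0.27 to -0.0028, unadjusted p = 0.04566, edgeR adjusted p = 0.1303), so a fall of up to 0.831-fold is within the interval and an increase is not. With the replicate number as a block, ACLY passed as lower (-0.13, edgeR adjusted p = 0.02168). In 10 of the 11 alternatives ACLY did not pass, as in the reported fit. Its log2 fold change ranged from -0.189 without vehicle replicate 2 to -0.0439 with loess offsets. With loess offsets or upper-quartile scaling (-0.107) an increase was not excluded at 95%, so its exclusion above depends on the scaling used. In the reported fit the ACLY interval lay below those of the other 9 members, the nearest of which began at 0.10 (ACSL3). The nuclear and cytosolic acetyl-CoA synthetase gene ACSS2 (chromosome 20 from 33459949 to 33515765, plus strand), which uses free acetate, had 44.44 and 45.01 CPM in vehicle and 56.1 and 54.4 CPM in Liq. It rose by 0.30 as a log2 value (SE 0.081, edgeR adjusted p = 0.007349). Without vehicle replicate 1 or vehicle replicate 2 the call was lost (edgeR adjusted p = 0.1499 and 0.1074), while the log2 fold change stayed at 0.30 and 0.31. The number of ACSS2 reads per ACLY read was 0.0835 and 0.0912 in vehicle and 0.120 and 0.117 in Liq.

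ACACA and FASN carry out the committed steps of chain synthesis. ACACA (chromosome 17 from 35441927 to 35766927, minus strand), which carboxylates acetyl-CoA to malonyl-CoA, had 171 and 168 CPM in vehicle and 212 and 222 CPM in Liq. The groups were well apart, and the increase was 0.35 as a log2 value (SE 0.069, edgeR adjusted p = 0.0005018). FASN (chromosome 17 from 80036214 to 80056170, minus strand), the multifunctional synthase that assembles palmitate, had 608 and 552 CPM in vehicle and 830 and 746 CPM in Liq, the largest SDs in CPM among the members (39.6 and 59.2). Its increase was 0.44 (SE 0.067, edgeR adjusted p = 2.147e-05), and 0.36 to 0.52 when 1 sample was left out. FASN reads per ACACA read were 3.55 and 3.28 in vehicle and 3.92 and 3.36 in Liq, so the groups overlapped in this ratio. FASN reads per ACLY read were 1.141 and 1.118 in vehicle and 1.77 and 1.60 in Liq, which did not overlap.

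The elongases ELOVL6 and ELOVL5 rose by similar amounts. ELOVL6 (chromosome 4 from 110967002 to 111120355, minus strand) lengthens palmitate to stearate and had 57.3 and 61.3 CPM in vehicle and 73.9 and 77.8 CPM in Liq, an increase of 0.36 as a log2 value (SE 0.079, edgeR adjusted p = 0.001681). Without vehicle replicate 1 it was 0.31 and the call was lost (edgeR adjusted p = 0.1122). ELOVL5 (chromosome 6 from 53132196 to 53213977, minus strand) lengthens polyunsaturated chains and had 286 and 300 CPM in vehicle and 353 and 388 CPM in Liq, an increase of 0.34 (SE 0.068, edgeR adjusted p = 0.0006616). The lowest Liq value of each gene was above its highest vehicle value, by 1.21 times for ELOVL6 and 1.18 times for ELOVL5. ELOVL6 reads per ELOVL5 read were 0.201 and 0.204 in vehicle and 0.209 and 0.201 in Liq.

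Of the desaturases, SCD rose most. SCD (chromosome 10 from 102106990 to 102124583, plus strand) puts the first double bond into stearate and palmitate and so makes oleate and palmitoleate. Its counts were 20315 and 18549 in vehicle and 34160 and 50538 in Liq, or 494.1 and 495.5 CPM and 960.6 and 1007 CPM. The vehicle samples were almost equal, and the lowest Liq value was 1.94 times the highest vehicle value. The log2 fold change reached 0.99 (SE 0.061, 95% interval 0.87 to 1.12, edgeR adjusted p = 2.991e-12), which ranked 20th of all tested genes by p-value and was above that of 98.0% of them. Leaving out any 1 sample gave 0.96 to 1.02. GENCODE lists a processed pseudogene, SCDP1 (chromosome 17 from 20687958 to 20689038), and reads that aligned equally to both would not count as unique, as for ACSL3 and its pseudogene ACSL3P1.

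FADS1 and FADS2, neighbours on chromosome 11, encode the desaturases that convert linoleic and linolenic acids into longer polyunsaturated fatty acids. FADS2 (61560452 to 61634826, plus strand), which takes the first step, had 24.2 and 23.8 CPM in vehicle and 39.9 and 34.9 CPM in Liq. It increased by 0.64 as a log2 value (SE 0.093, edgeR adjusted p = 1.385e-05), with 0.54 without Liq replicate 1 and 0.73 without Liq replicate 2. FADS1 (61567099 to 61596790, minus strand), which acts later in the same route, had 152 and 150 CPM in vehicle and 203.1 and 203.2 CPM in Liq. The replicates of FADS1 differed little within each group, and the increase was 0.43 (SE 0.069, edgeR adjusted p = 5.103e-05). FADS2 reads per FADS1 read were 0.160 and 0.159 in vehicle and 0.197 and 0.172 in Liq. The annotated exons of FADS1 and FADS2 share 490 bases on opposite strands. The strand setting of the counting is not given in the sources used here, so the counts from these bases are uncertain. The same applies to 403 exon bases that ACSL3 shares with its antisense gene ACSL3-AS1 and to 156 and 240 bases that ACLY and ELOVL6 share with unnamed noncoding genes. On the same strand, FADS2 shares 49 exon bases with FEN1, and FADS1 shares 80 with MIR1908. Reads there can match both genes under either strand setting.

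ACSL3 (chromosome 2 from 223725660 to 223809357, plus strand), a long-chain acyl-CoA synthetase of the endoplasmic reticulum and lipid droplets, showed the smallest of the increases. It had 203 and 214 CPM in vehicle and 233 and 264 CPM in Liq, so the gap between groups was smaller than the gap between the Liq samples. The log2 fold change came to 0.25 (SE 0.073, edgeR adjusted p = 0.0125). This call was lost without vehicle replicate 1, vehicle replicate 2 or Liq replicate 2 (0.22, 0.29 and 0.16, edgeR adjusted p = 0.2286, 0.07036 and 0.1144).

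**Figure D2:**
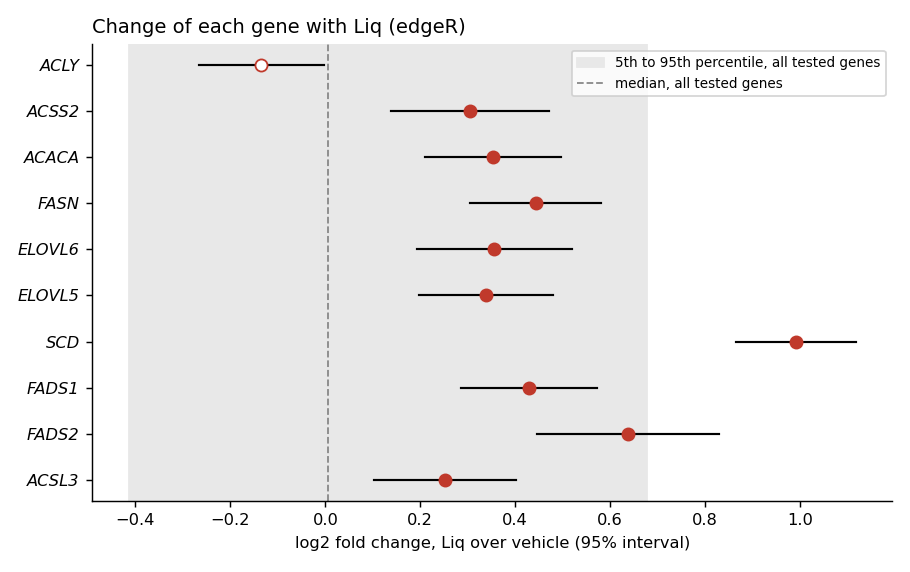
Log2 fold change of each gene, Liq over vehicle, with its 95% interval from edgeR (2 samples per group), filled where the adjusted p-value was under 0.05. The grey band spans the 5th to 95th percentile of all 13546 tested genes (-0.414 to 0.678) and the dashed line their median. SCD lies to the right of the band, and ACLY is the open point left of the line.

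Added together, the 10 genes had 2572 and 2503 CPM in the vehicle samples and 3429 and 3464 CPM in the Liq samples. The difference of the group means was 908.6 CPM, of which SCD made up 53.8% and FASN 22.9%. SCD held 19.2% and 19.8% of the members' summed CPM in vehicle and 28.02% and 29.07% in Liq. ACLY held 20.7% and 19.7% in vehicle and 13.7% and 13.5% in Liq. The share of FADS1 was 5.898% and 5.996% in vehicle and 5.92% and 5.87% in Liq, so its groups overlapped. SCD reads per ACLY read went from 0.928 and 1.00 in vehicle to 2.05 and 2.16 in Liq.

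For levels between genes, CPM was divided by the length of the canonical transcript in GENCODE to give RPKM (CPM per kb of transcript), a length that may not be that of the isoforms made in ES2. In vehicle the order was ACLY (119.5 RPKM), ELOVL5 (106.0), SCD (94.3), FASN (68.5), ACSL3 (37.4), FADS1 (34.6), ACACA (17.0), ACSS2 (15.5), ELOVL6 (9.02) and FADS2 (7.77 RPKM), and the 2 samples of neighbours in this order did not overlap. In Liq the order became SCD (187.6 RPKM), ELOVL5 (133.9), ACLY (108.8), FASN (93.1), FADS1 (46.6), ACSL3 (44.5), ACACA (21.7), ACSS2 (19.2), FADS2 (12.1) and ELOVL6 (11.5 RPKM). FADS1 and ACSL3 overlapped in Liq, as did FADS2 and ELOVL6. The members thus ranged from near the median of tested genes, which was 9.30 to 9.47 RPKM in the 4 samples to the upper end of the range. SCD was above 93.6% and 93.9% of tested genes in vehicle and above 97.5% and 97.7% in Liq.

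**Figure D3:**
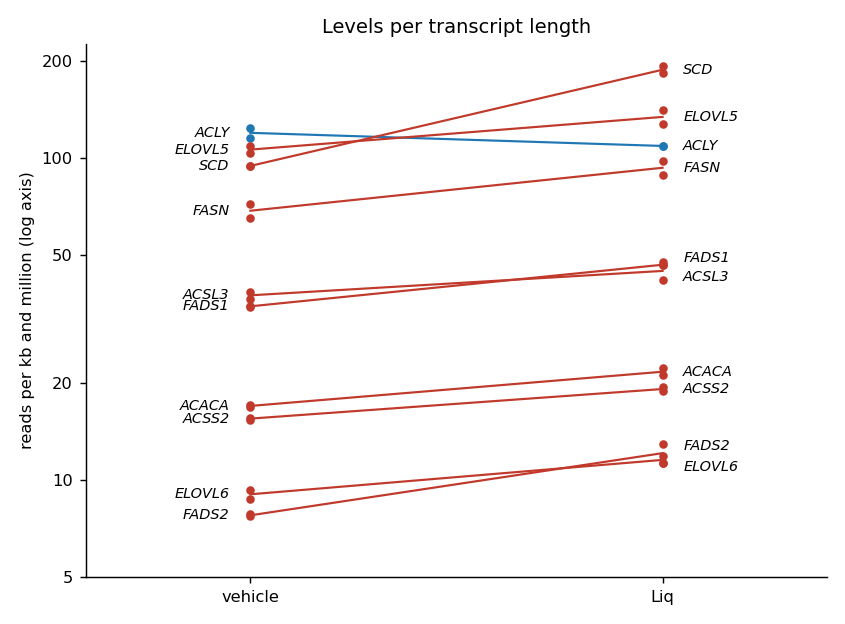
Level of each gene per length (RPKM, log axis) in vehicle and Liq. Points are single samples and lines join group means, red for the genes that rose and blue for ACLY. SCD moves from the third to the highest level, from 94.3 to 187.6 RPKM.

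The other enzymes of the route did not move as a block. Of 29 such genes, 25 were tested, 4 rose (16.0%, against 12.6% of all tested genes) and 2 fell (against 11.3% of all tested genes). The other 19 did not pass, and the median log2 fold change was 0.104. The genes that rose were HSD17B8 (0.70, edgeR adjusted p = 0.0003286), a subunit of the mitochondrial synthesis system, FADS3 (0.55), a relative of FADS1 and FADS2, SLC25A1 (0.37), the carrier that exports citrate from mitochondria, and SCD5 (0.37), the second stearoyl-CoA desaturase. SLC25A1 had 55.1 and 47.0 CPM in vehicle and 69.3 and 63.2 CPM in Liq. SCD reads per SCD5 read were 25.8 and 26.3 in vehicle and 39.4 and 40.5 in Liq. The genes that fell were the acyl-CoA synthetase genes ACSL5 (-0.55) and ACSL4 (-0.22), which thus differed in sign from ACSL3.

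Among regulators of lipogenic transcription and of acetyl-CoA carboxylase, 28 of 30 were tested and 9 rose (32.1%, against 12.6% of all tested genes). Another 5 fell, against 11.3% of all tested genes, and the median was 0.106. Those that fell were MLX (-0.32), USF2 (-0.32), PRKAA1 (-0.27), USF1 (-0.26) and NFYA (-0.25). SREBF1 had 63.3 and 58.4 CPM in vehicle and 83.2 and 75.1 CPM in Liq, an increase of 0.38 on the log2 scale (edgeR adjusted p = 0.001254). SREBF2 had 110.0 and 102.8 CPM in vehicle and 145.3 and 133.8 CPM in Liq, an increase of 0.39 (edgeR adjusted p = 0.000405). INSIG1, itself a target of these factors, rose by 0.49 (edgeR adjusted p = 3.724e-05), from 61.7 and 62.5 CPM to 84.5 and 89.9 CPM. In each of these 3 genes both Liq samples lay above both vehicle samples, as in 31.5% of all tested genes. PPARA, a nuclear receptor that drives fatty acid oxidation, rose by 0.43. SCAP had a log2 fold change of 0.16 (95% interval -0.014 to 0.34, edgeR adjusted p = 0.1746), and NR1H3, the liver X receptor alpha gene, one of 0.22 (95% interval -0.090 to 0.53, edgeR adjusted p = 0.3087). MLXIPL, the gene of the carbohydrate response factor, had 0 to 2 counts in a sample and was not tested.

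The cholesterol branch moved in the same direction as the members. Of 23 tested genes of cholesterol synthesis and uptake, 17 rose (73.9%, against 12.6% of all tested genes) and 6 did not pass, with a median of 0.438. DHCR7, a late enzyme of cholesterol synthesis, rose by 0.81, LSS by 0.79, MSMO1 (listed as SC4MOL) by 0.86 and HMGCS1 by 0.60. DHCR7 had 509 and 461 CPM in vehicle and 897 and 804 CPM in Liq. Of the 7 tested genes of NADPH supply, the reducing power that fatty acid synthesis consumes, 4 rose (57.1%, against the same 12.6%). Among them were ME1 (0.68), PGD (0.65) and IDH1 (0.53). PGD had 292 and 288 CPM in vehicle and 460 and 447 CPM in Liq. Members of both lists and the fatty acid genes were measured in the same samples, so these counts are not separate evidence of one change.

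For the steps that use, import or burn fatty acids, the counts stand against 12.6% of all tested genes that rose and 11.3% that fell. Of 23 tested genes of glycerolipid assembly and lipid droplets, 6 rose (26.1%) and 4 fell (median 0.0146). GPAM, which starts glycerolipid synthesis from acyl-CoA in mitochondria, fell from 124 and 126 CPM to 74.9 and 82.9 CPM, by 0.66 on the log2 scale (edgeR adjusted p = 3.832e-07), and the monoglyceride lipase gene MGLL fell by 0.42. LPCAT3, which places polyunsaturated chains into phospholipids, rose by 0.51, and the phosphatidic acid phosphatase gene LPIN1 by 0.39. Of 28 tested genes of fatty acid oxidation, 7 rose (25.0%) and 3 fell (median 0.0721). CPT1A, the entry step of mitochondrial oxidation, rose by 0.76, EHHADH by 0.51 and ACADVL by 0.33. PDK4, a brake on pyruvate use, rose by 1.00, from 1.046 and 1.202 CPM in vehicle to 2.45 and 2.07 CPM in Liq. Of 9 tested genes of fatty acid uptake and binding, 1 rose, the transporter gene SLC27A1 (0.37), a share of 11.1% against the 12.6% of all tested genes. With DESeq2, without vehicle replicate 2 and without Liq replicate 1 that number was 0. Of 8 tested genes that use polyunsaturated fatty acids, 3 rose (37.5%) and 2 fell. PTGS2, which makes prostaglandins from arachidonate, was lower by 1.09 and PLA2G6 higher by 0.84. Over these 8 lists together 51 of 151 tested genes rose and 16 fell, against 12.6% and 11.3% of all tested genes. Both numbers were smaller without vehicle replicate 1 and without vehicle replicate 2. For the cholesterol genes the number that rose was 10 and 11 in those fits, and for the regulators it was 3 and 4, with 0 and 1 that fell. With loess offsets and all samples, 1 gene of fatty acid oxidation fell. Without 1 vehicle sample fewer genes of that list rose and fewer fell, as among all tested genes. For glycerolipid assembly 3 rose in both fits and 2 and 3 fell, for the other enzymes of the route 3 and 2 rose and 1 fell in both, and for the use of polyunsaturated fatty acids 1 rose and 1 fell in both. The number that rose in NADPH supply was 4 in both fits.

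**Figure D4:**
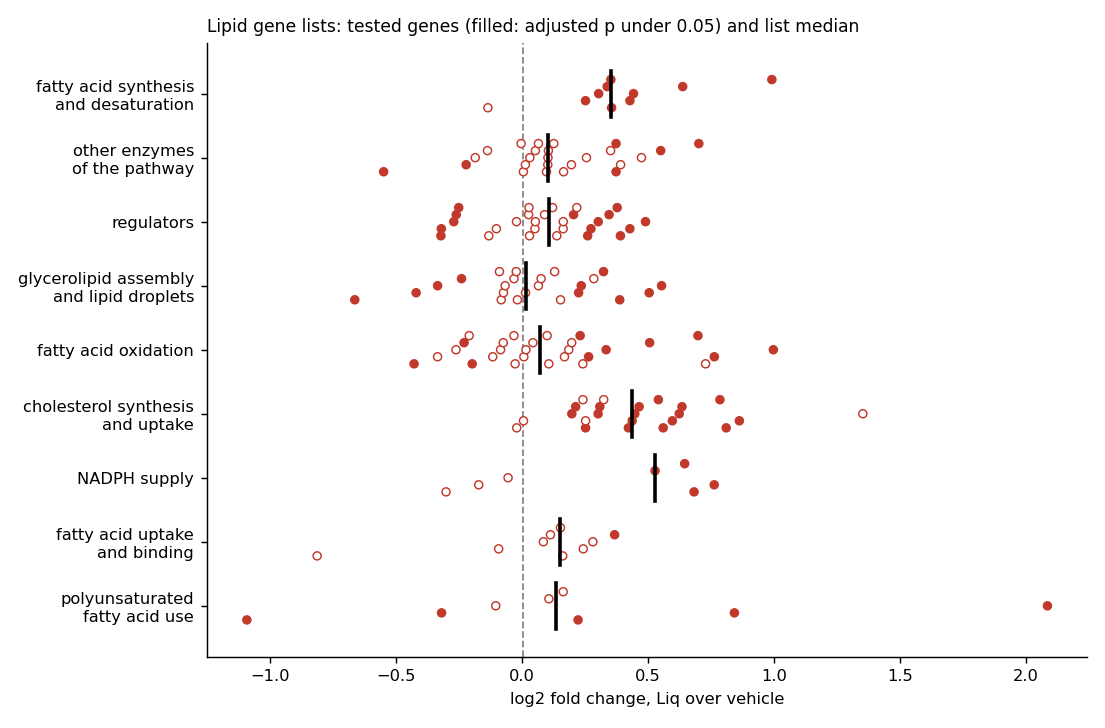
Log2 fold change, Liq over vehicle, of each tested gene in the 10 genes described here (top) and in 8 other lipid gene lists. Filled points had an adjusted p-value under 0.05 (edgeR), black bars are list medians, the dashed line is the median of all tested genes, and height within a row has no meaning. The medians of the top row, cholesterol synthesis and NADPH supply are 0.355, 0.438 and 0.528, and the others lie between 0.0146 and 0.153.

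**Figure D5:**
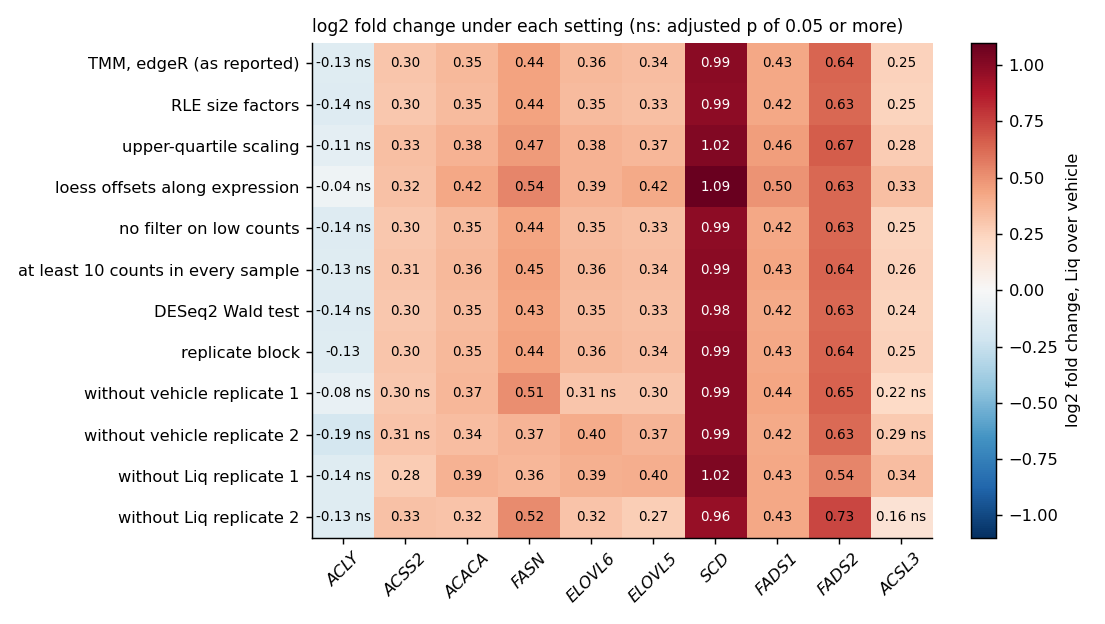
Log2 fold change of each gene (columns) under the reported fit and 11 alternatives (rows), as numbers and color. The marking ns shows an adjusted p-value of 0.05 or more. The columns of SCD (0.96 to 1.09), FADS2, FADS1, FASN, ACACA and ELOVL5 have no such mark, and the marks fall on ACLY, ACSS2, ELOVL6 and ACSL3.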

How the data were processed

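Total RNA from 2 vehicle and 2 Liq samples of ES2 cells was sequenced by the authors as TruSeq libraries with single-end reads, with groups and replicate numbers given by the sample titles and the dose by the study's methods. According to the submitters' processing notes, bcl2fastq 2.17.1.14, TopHat2 2.0.8b and HTSeq were used with the hg19 build, and the authors deposited raw counts per gene symbol for each sample, neither normalized nor pooled. Reads with several alignments or several genes are not counted by HTSeq, so genes with close copies are undercounted. Its 5 tally lines (35.6% to 36.2% of reads not unique, 7.75% to 9.16% on no gene, 0.544% to 0.557% ambiguous) were left out of library sizes and tests.

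The test was that of edgeR 4.0.16 in R 4.3.3. The filter filterByExpr (minimum count 10, minimum total 15) was followed by TMM factors, glmQLFit and glmQLFTest, with condition as the only term. Benjamini-Hochberg adjustment ran over 13546 genes, and a gene passed at an adjusted p-value under 0.05. The SE is the log2 fold change divided by the root of F, and intervals are at 95%. The alternatives were RLE or upper-quartile scaling, loess offsets (span 0.3), other count filters, DESeq2 1.42.0, a replicate block, each sample left out and the study's 1.5-fold threshold. The fits were also run on simulated counts that had the same spread for every gene, and no call here rests on that run. Coordinates and lengths are from GENCODE on GRCh37, where 84.3% of tested genes had a length, and the start regions are from RefSeq on GRCh38.p14. The members and the lists were chosen with earlier results of these data known. All members are named, and of each other list at most the 4 genes with the smallest p-value, plus SREBF1, SREBF2, INSIG1, SCAP, MLXIPL and NR1H3. SCD5, ACSL4, the 5 regulators that fell and the marker genes were named after their values were seen. A gene that this rule names is not reported here. No gene set was tested.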

Additional observations from a re-analysis of the deposited data

How the results depend on the processing

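The direction of each of the 10 members was the same under all 11 alternatives of normalization, filter, test, block and left-out sample. ACACA, FASN, SCD, ELOVL5, FADS1 and FADS2 passed in each of them. The number of members that rose was 9 under all scalings, filters and tests, and 6 to 9 when 1 sample was left out, which also took the number of all called genes from 3245 down to 1413 without vehicle replicate 1 and 1542 without vehicle replicate 2. It was 2 (SCD and FADS2) with a 1.5-fold threshold at either the adjusted or the unadjusted p-value. The members' median log2 fold change was 0.322 to 0.389 with 1 sample left out, and 0.423 with loess offsets along expression, the largest shift among the alternatives. These offsets took ACLY to -0.0439 (edgeR adjusted p = 0.6632). In the 8 other lists the number that rose ranged from 29 to 52 and the number that fell from 4 to 15 with 1 sample left out. With a 1.5-fold threshold 15 rose and 2 fell at the adjusted p-value, and 17 rose and 2 fell at the unadjusted one. With the replicate number as a block, 1 member passed as lower, ACLY (-0.13, edgeR adjusted p = 0.02168), and no other member changed its call. The labels name nothing that samples of 1 number share, and same-numbered samples deviated from the group means with a correlation of only 0.0483 over genes. Each member had at least 891 counts in every sample.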
